A study of Mus musculus with 3 samples.

Results

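Tal1, Hemgn, Trim10, Bnip3l, Icam4, Dmtn, Prdx2 and Bpgm are 8 genes of red cell formation. Their spots were found by annotation: each had a value on all 3 arrays and a platform annotation naming exactly 1 gene, that gene being one of the 8. All 8 genes were measured, by 11 spots, among 3462 genes (4554 spots) that met the same conditions. Trim10 had 2 spots, Prdx2 had 3, and each of the other 6 genes had 1. No spot annotated to a member alone lacked a value on any array. A further spot is annotated to 5 genes, Dmtn and the nuclear export receptor Xpo7 among them, and is not counted with the members.

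The samples are bone marrow of C57BL/6 mice, castrated at 7 weeks and examined at 17 weeks of age. The treated mice had a testosterone pellet (12.5 mg, released over 60 days) for 4 weeks, and their matched controls, also castrated, had a placebo pellet. RNA was taken from pulverized bone, so other tissue of the bones may be included. Each of 3 two-colour arrays, T1, T2 and T3, set 1 testosterone mouse against its placebo partner (n = 3 pairs), with testosterone in Cy5 on T1 and T3 and in Cy3 on T2.

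A value is the log ratio of a pair at a spot. It is read as log2 of testosterone over placebo, so that a positive value means higher with testosterone. The base was inferred from the spread of the values, and the direction rests on the design text, which calls testosterone the experimental channel. If the logs are natural, every fold below would be larger. A ratio carries no level, so the labelled tissue cannot be checked by whether its markers are present, and fewer cells of a type cannot be told apart from less RNA per cell.

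Red cells form in the marrow from erythroid precursors that gather around macrophages, fill with haemoglobin and then shed the nucleus and clear their mitochondria. Transcription factors of the Gata1 and Tal1 complex switch on the genes of this programme. Late in it the cell builds a spectrin and actin skeleton under its membrane and is rich in enzymes for glycolysis, carbon dioxide transport, oxygen release and protection from peroxide. Androgens are known as stimulants of red cell production.

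Because the Gata1 and Tal1 complex binds GATA words and E-boxes, the promoter windows of the members were searched for these letters. RefSeq windows on build GRCm38.p6 (250 bases before to 50 after a transcript's start) were at hand for 6 of the 8 genes, in 7 windows, with 2 for Tal1. Bnip3l and Dmtn had none in the table used. A GATA word was AGATAA or TGATAA on either strand. It occurred in 4 of the 7 windows, those of Hemgn, Trim10, Icam4 and the upstream window of Tal1, against 18.6% of all 32851 windows in the table. These 4 are shown with the GATA words in capitals, since they hold the words of the complex to which Tal1 belongs. They are Tal1 at chr4:115056176-115056475 (plus strand), Hemgn at chr4:46404134-46404433 (minus strand), Trim10 at chr17:36869324-36869623 (plus strand) and Icam4 at chr9:21029182-21029481 (plus strand).
Tal1: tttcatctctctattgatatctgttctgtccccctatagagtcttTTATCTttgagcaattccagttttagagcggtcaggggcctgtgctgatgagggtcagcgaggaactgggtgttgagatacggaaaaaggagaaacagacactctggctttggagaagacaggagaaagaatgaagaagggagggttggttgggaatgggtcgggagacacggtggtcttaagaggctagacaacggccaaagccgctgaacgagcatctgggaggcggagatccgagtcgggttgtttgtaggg
Hemgn: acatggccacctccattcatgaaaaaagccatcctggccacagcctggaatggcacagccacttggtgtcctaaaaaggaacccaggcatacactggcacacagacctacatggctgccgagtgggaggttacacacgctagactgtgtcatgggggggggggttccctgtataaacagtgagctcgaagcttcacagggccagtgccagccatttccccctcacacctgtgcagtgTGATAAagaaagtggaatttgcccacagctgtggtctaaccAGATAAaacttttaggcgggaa
Trim10: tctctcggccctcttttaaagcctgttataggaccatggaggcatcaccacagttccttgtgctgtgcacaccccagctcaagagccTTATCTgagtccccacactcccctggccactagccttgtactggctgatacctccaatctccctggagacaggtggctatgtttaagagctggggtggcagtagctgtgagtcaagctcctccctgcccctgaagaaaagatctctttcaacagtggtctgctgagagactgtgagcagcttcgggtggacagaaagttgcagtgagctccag
Icam4: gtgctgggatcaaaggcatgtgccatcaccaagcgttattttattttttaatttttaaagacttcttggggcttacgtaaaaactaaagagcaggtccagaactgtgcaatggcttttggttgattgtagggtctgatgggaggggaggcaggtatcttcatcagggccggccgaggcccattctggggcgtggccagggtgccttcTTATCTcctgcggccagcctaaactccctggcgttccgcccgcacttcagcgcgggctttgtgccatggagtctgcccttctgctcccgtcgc
The base at position 251 of each window is the transcript's start. Hemgn held 2 GATA words, beginning 13 bases before the start and 28 bases after it. The word of Icam4 begins 43 bases before the start, that of Trim10 163 bases and that of Tal1 205 bases. The windows of Prdx2 and Bpgm and the downstream window of Tal1 held none. An E-box, CANNTG, occurred in 5 of the 7 windows, against 72.3% of all windows. The word CCNCNCCC, a form of the motif of Klf-type factors, read on either strand, also occurred in 5 of the 7, against 49.5%. In the window of Hemgn its only matches overlapped within a single run of G. No GATA word overlapped another motif. Such matches are descriptions of letters and not binding sites.

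Every one of the 8 genes had a mean ratio above 0, between 0.12 for Dmtn and 0.28 for Prdx2, which is 1.09-fold to 1.21-fold. Of all genes tested, 37.6% had a mean above 0, and their median was -0.07, against a median of 0.22 for the 8. No member passed the test: limma, with Benjamini-Hochberg adjustment over the whole table and a threshold of 0.05, called 0 of 8 genes and 0 of 11 spots. Over the table, 4.91% of genes and 2.83% of spots passed. At an unadjusted p under 0.05 there were 0 of 8 member genes and 2 of 11 member spots, against 28.1% of genes and 29.9% of spots overall. Ratios above 0 on all 3 arrays were seen in 5 of 8 genes (Tal1, Hemgn, Bnip3l, Icam4 and Bpgm), against 18.1% of all genes. The same held for 7 of 11 spots, against 23.9% of all spots. The 8 genes were chosen with earlier results of these data known. Their shares above 0 and their median are therefore descriptions of the members and not a test of them.

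**Figure D1:**
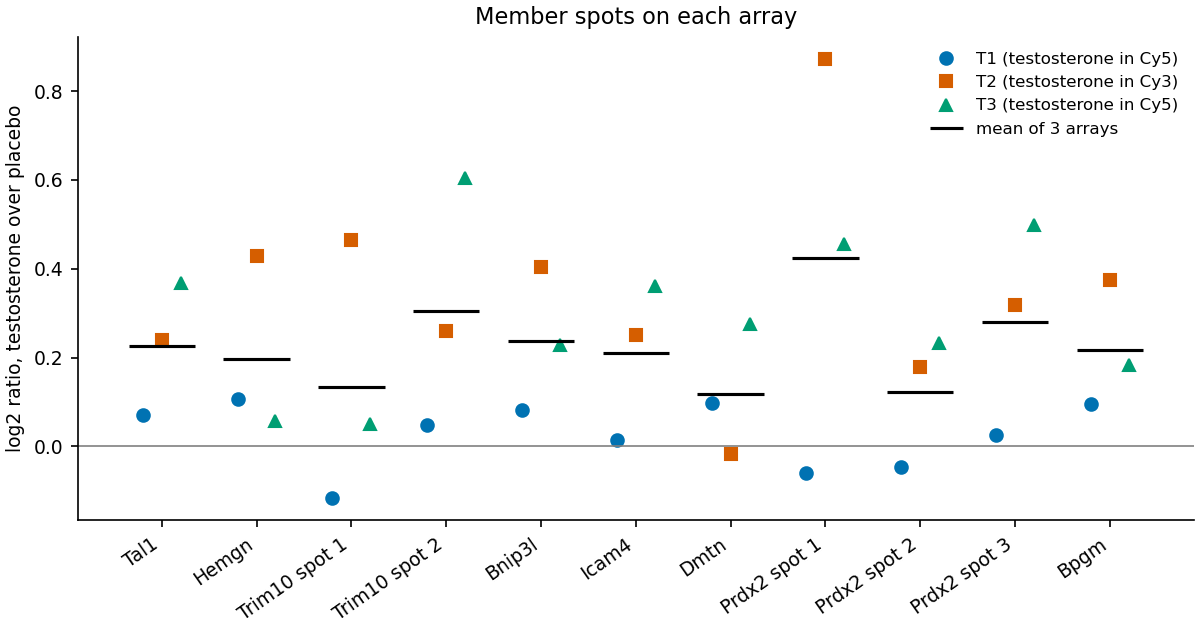
Log2 ratio of testosterone over placebo at each of the 11 member spots on each array (blue circles T1, orange squares T2, green triangles T3), with a black line at the mean of the 3 arrays. Blue circles lie between -0.116 and 0.106, and most orange and green points lie above them, up to 0.873 at a spot of Prdx2 on T2.

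The regulators come first among the members. Tal1 is the basic helix-loop-helix factor that binds E-boxes with a partner such as Tcf3 and is required for blood formation and red cell differentiation. Its ratios were 0.070 in pair T1, 0.240 in pair T2 and 0.369 in pair T3. All 3 pairs were above 0, T3 the most, and the mean was 0.23 ± 0.15 (SD, n = 3; 1.17-fold; adjusted p = 0.203 by limma). Hemgn, hemogen, is a nuclear protein of blood precursors and erythroblasts. It had 0.106 in pair T1, 0.428 in pair T2 and 0.058 in pair T3, so that T2 stood above the other pairs. Its mean was 0.20 ± 0.20 (SD, n = 3; 1.15-fold; adjusted p = 0.282 by limma).

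Trim10 encodes a RING finger protein that is needed in mouse cells for terminal erythroid differentiation. Its spots, which carry different sequence accessions, ordered the pairs differently. The lower spot read -0.116 in pair T1, 0.465 in pair T2 and 0.050 in pair T3, and the higher spot 0.048, 0.260 and 0.605 on the same arrays. On T3 the higher spot exceeded the lower one by 0.56, and on T2 the difference was -0.205. Averaged over both spots the ratios were -0.034 in pair T1, 0.363 in pair T2 and 0.328 in pair T3, with a mean of 0.22 ± 0.22 (SD, n = 3; 1.16-fold; adjusted p = 0.251 by limma). For this gene the spots of 1 array differed by as much as the pairs did.

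Bnip3l, also called Nix, is the receptor on the mitochondrial surface through which reticulocytes in mice send their mitochondria to autophagy. It read 0.082 in pair T1, 0.403 in pair T2 and 0.229 in pair T3, all above 0 and highest on T2. The mean was 0.24 ± 0.16 (SD, n = 3; 1.18-fold; adjusted p = 0.191 by limma).

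Of the surface and skeleton genes, Icam4 encodes an adhesion molecule of erythroid cells, which carries the LW blood group in humans and binds integrins of macrophages. Its ratios were 0.014 in pair T1, 0.252 in pair T2 and 0.362 in pair T3. The pair of T1 was near 0 and the other pairs above it, with a mean of 0.21 ± 0.18 (SD, n = 3; 1.16-fold; adjusted p = 0.246 by limma). Dmtn, dematin, bundles actin and ties it to the red cell membrane. It had 0.098 in pair T1, -0.016 in pair T2 and 0.275 in pair T3, and was the only member below 0 on T2. Its mean was the smallest of the 8, at 0.12 ± 0.15 (SD, n = 3; 1.09-fold; adjusted p = 0.479 by limma). The spot annotated to Dmtn and 4 other genes read 0.314 in pair T1, 0.649 in pair T2 and 0.278 in pair T3, and which of those genes it reports is not known.

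Prdx2, a peroxiredoxin that reduces hydrogen peroxide and is among the most abundant proteins of red cells, had the largest gene mean. Its spots read -0.059, -0.046 and 0.025 on T1, 0.873, 0.180 and 0.318 on T2, and 0.456, 0.234 and 0.498 on T3. Thus T1 was near 0 at each spot and T2 and T3 were above 0 at each. The spots with 0.873 and 0.180 on T2 carry the same sequence accession, and the one minus the other was 0.69 on T2 and -0.01 on T1. Averaged over its spots, Prdx2 had -0.027 in pair T1, 0.457 in pair T2 and 0.396 in pair T3, with a mean of 0.28 ± 0.26 (SD, n = 3; 1.21-fold; adjusted p = 0.190 by limma). With the median over its spots in place of the mean, the gene stood at 0.24 (adjusted p = 0.236 by limma).

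Bpgm makes bisphosphoglycerate, the small molecule that lowers the oxygen affinity of haemoglobin. Its ratios were 0.096 in pair T1, 0.375 in pair T2 and 0.184 in pair T3, above 0 in each pair. The mean was 0.22 ± 0.14 (SD, n = 3; 1.16-fold; adjusted p = 0.212 by limma), with the smallest SD of the 8.

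**Figure D2:**
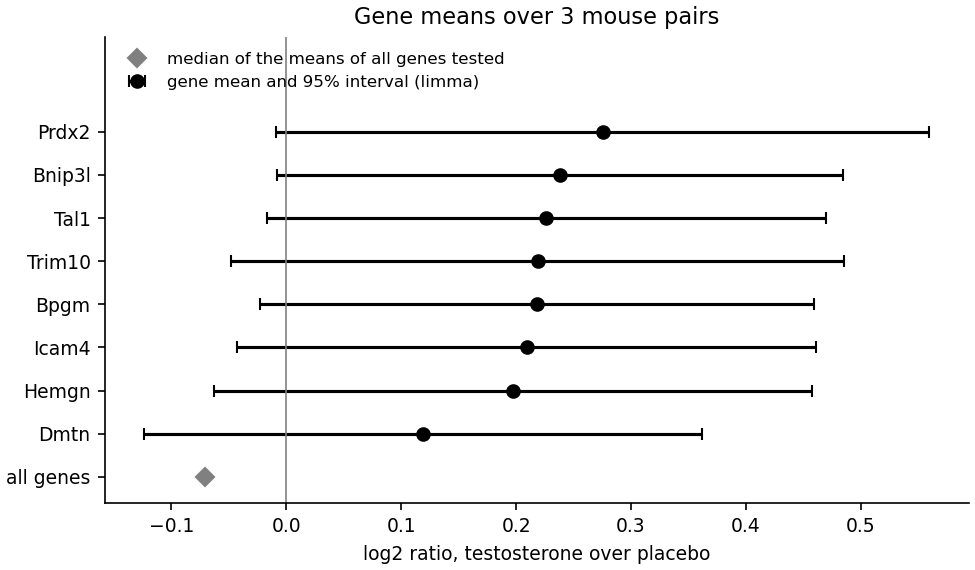
Mean log2 ratio of testosterone over placebo for each member gene over 3 mouse pairs (points), with 95% intervals from limma (bars), and the median of the means of all 3462 genes tested (grey diamond). All 8 points lie right of 0, from 0.12 to 0.28, and all 8 intervals include 0.

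The intervals show what size of change the 3 pairs leave possible. For Prdx2 the 95% interval of the mean ran from -0.01 to 0.56, that is from 0.99-fold to 1.47-fold. For Bnip3l it ran from -0.01 to 0.48 and for Tal1 from -0.02 to 0.47. Dmtn had the lowest interval, -0.12 to 0.36. Among genes that passed as higher, the smallest mean was 0.42, above the mean of every member. A p that misses the threshold does not show that these genes were the same with testosterone and placebo.

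In order of their means the genes ran Prdx2, Bnip3l, Tal1, Trim10, Bpgm, Icam4, Hemgn and Dmtn. No neighbours in this order differed beyond their spread over the arrays. The largest step was that of Hemgn over Dmtn, 0.08, with an SD of the difference of 0.34 over 3 pairs. Even Prdx2 and Dmtn, at the ends, differed by 0.16 with an SD of 0.30. Among all 3462 gene means, those of the members lay between percentile 77.3 (Dmtn) and percentile 88.6 (Prdx2).

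The ratios of the members also varied by mouse pair. On T1 the 8 ratios lay between -0.034 and 0.106 with a median of 0.08, on T2 between -0.016 and 0.457 with a median of 0.37, and on T3 between 0.058 and 0.396 with a median of 0.30. The lowest of the 3 values was on T1 for 6 of the 8 genes, against 33.2% of all genes. The exceptions were Hemgn, lowest on T3, and Dmtn, lowest on T2. T2 was highest for 5 members and T3 for the other 3. Ranked within each array, the median member stood at percentile 67.2 in pair T1, 87.1 in pair T2 and 89.4 in pair T3. Of the 33 spot values, 29 were above 0: 8 of 11 on T1, 10 of 11 on T2 and 11 of 11 on T3. These values include repeat spots of Trim10 and Prdx2 and are not independent. By gene, 6 of 8 members were above 0 on T1, 7 on T2 and 8 on T3. Of all 3462 genes, 1520 were above 0 on T1, 1275 on T2 and 1394 on T3.

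Leaving out the pair of T1 raised each of the 8 means, and Prdx2 then passed (0.43, adjusted p = 0.0272 by limma, n = 2 pairs), as 1 of 8 members, where 18.0% of all genes passed. At spot level the spot of Prdx2 that read 0.873 on T2 (mean 0.66, adjusted p = 0.00291) and the higher spot of Trim10 (mean 0.43, adjusted p = 0.0497) passed, 2 of 11, where 18.1% of all spots did. The mean of Trim10 over its spots was then 0.35. Leaving out T2 or T3 gave no call among the members. Without T2 the mean of Hemgn was 0.08, that of Bnip3l 0.16, that of Bpgm 0.14 and that of Dmtn 0.19. Without T3 the mean of Dmtn was 0.04 and that of Icam4 0.13. Since T2 alone has the dyes exchanged, a dye effect and the pair of T2 cannot be told apart. With the sign of T2 turned, 3 of the 8 means stayed above 0 (Tal1 at 0.07, Icam4 at 0.04 and Dmtn at 0.13) and the other 5 lay between -0.088 and -0.023.

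**Figure D3:**
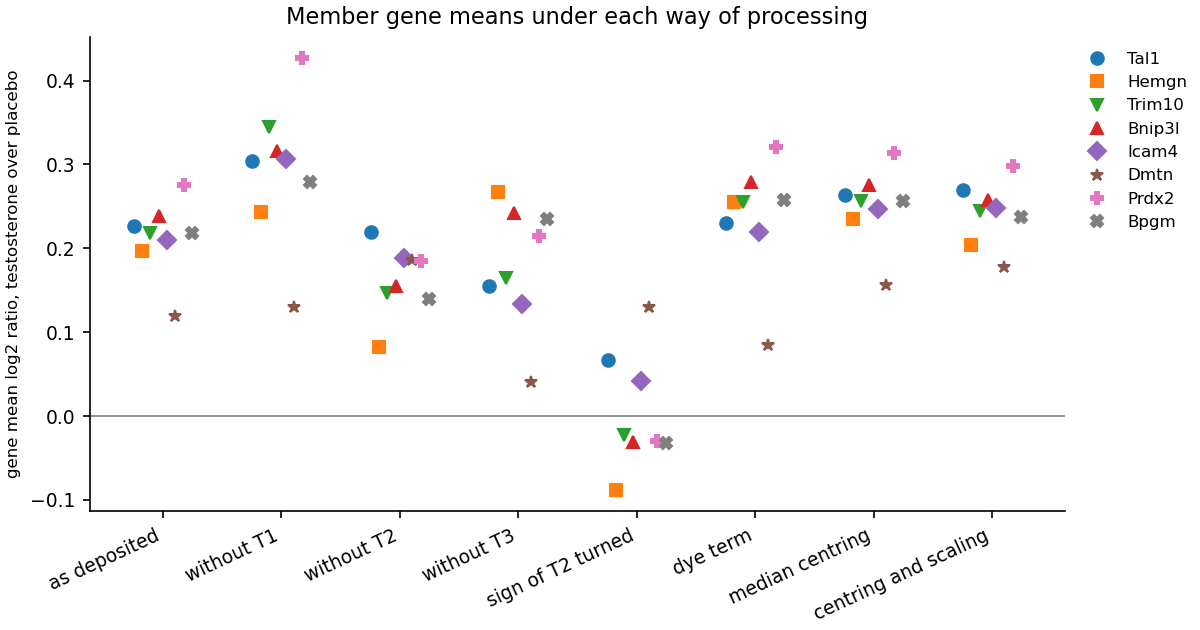
Mean log2 ratio of testosterone over placebo for each member gene (symbols) under 8 ways of handling the 3 arrays. The 8 means are above 0 in every column except that with the sign of T2 turned, where 5 lie below 0.

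Other genes of red cell formation were read from lists chosen with earlier results of these data known. Globin, heme and iron genes had means on the same side of 0 as the members. All 7 that were measured had means above 0, with a median of 0.35, and 0 of 7 passed. Their medians were 0.13 in pair T1, 0.31 in pair T2 and 0.32 in pair T3. The beta-globin Hbb-b1 had 0.121 in pair T1, 0.579 in pair T2 and 0.351 in pair T3 (mean 0.35 ± 0.23, SD, n = 3; adjusted p = 0.111 by limma). Fech, which inserts iron to complete heme, had a mean of 0.36 ± 0.26, and Urod, an earlier enzyme of the same pathway, 0.38 ± 0.31 (SD, n = 3 each; adjusted p = 0.114 and 0.118 by limma).

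Other regulators of the red cell programme lay on both sides of 0. From a list of erythroid transcription factors and receptors 17 genes were measured, none of them a receptor. Of these, 7 had a mean above 0, 0 passed as higher and 2 as lower, against 1.68% of all genes higher and 3.24% lower. Their median was -0.01. The 2 that fell were Tcf3 and Ets1. Tcf3 encodes the E proteins that pair with Tal1, and is also required for B-cell development. It read -1.283 in pair T1, -0.973 in pair T2 and -0.830 in pair T3 (mean -1.03 ± 0.23, SD, n = 3; adjusted p = 0.00333 by limma), below 0 in each pair. Ets1, a factor of lymphocytes, had -0.777, -0.992 and -0.554 on T1, T2 and T3 (mean -0.77 ± 0.22, SD, n = 3; adjusted p = 0.0144 by limma), and did not pass without T2 (adjusted p = 0.116) or without T3 (adjusted p = 0.0701). The kinase Hipk2 had 0.143 in pair T1, 1.676 in pair T2 and 1.069 in pair T3 (adjusted p = 0.0618 by limma). Gata1, Klf1 and Lmo2 and the receptors Kit and Epor of the same list were not among the genes tested.

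Other genes listed for red cell membrane and adhesion stood around 0: of 12 measured, 6 means were above 0, the median was -0.03 and 0 passed. Vcam1 is counted here and again with the monocyte and macrophage markers. The adhesion molecule Bcam had the smallest p, with a mean of -0.30 ± 0.16 (SD, n = 3; adjusted p = 0.120 by limma). Its ratios were -0.313 in pair T1, -0.134 in pair T2 and -0.462 in pair T3, opposite in sign to those of Icam4.

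Of 13 genes of organelle clearance and enucleation, 6 had a mean above 0, the median was -0.004 and 0 passed. The kinase Ulk1, which starts autophagy and acts in the same clearance as Bnip3l, had 0.131 in pair T1, 0.412 in pair T2 and 0.301 in pair T3 (mean 0.28 ± 0.14, SD, n = 3; adjusted p = 0.134 by limma). Hdac6, a cytoplasmic deacetylase, had a mean of 0.31 ± 0.17 (SD, n = 3; adjusted p = 0.117 by limma). Bnip3, the close relative of Bnip3l that is induced by low oxygen in many cells, lay on the other side of 0 in each pair, with -0.091 in pair T1, -0.358 in pair T2 and -0.367 in pair T3 (mean -0.27 ± 0.16, SD, n = 3; adjusted p = 0.148 by limma).

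Antioxidant enzymes other than Prdx2 numbered 12, of which 4 had a mean above 0, 1 passed as higher and 0 as lower. Of all genes, 1.68% passed as higher and 3.24% as lower. Their median was -0.08. The gene that rose was Txnrd2, the thioredoxin reductase of mitochondria, at 0.296 in pair T1, 0.714 in pair T2 and 0.727 in pair T3 (mean 0.58 ± 0.25, SD, n = 3; 1.49-fold; adjusted p = 0.0467 by limma). It did not pass without T2 (adjusted p = 0.231), without T3 (adjusted p = 0.273) or after median centring (adjusted p = 0.0560). Gpx4, which reduces lipid peroxides, had a mean of -0.31 ± 0.33 (SD, n = 3; adjusted p = 0.188 by limma).

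Glycolysis, from which Bpgm draws its substrate, was represented by 7 genes, of which 2 had a mean above 0 and 0 passed. Hk1 and Pklr of the same list were not among the genes tested. The median of the measured genes was 0.13 in pair T1, -0.48 in pair T2 and -0.11 in pair T3, a different order of pairs from that of Bpgm. The medians of the skeletal muscle markers and of all genes tested had that same order as glycolysis. The part of muscle in these ratios was not tested. The triose isomerase Tpi1 had a mean of -0.26 ± 0.27 and the phosphoglycerate kinase Pgk1 of -0.21 ± 0.30 (SD, n = 3 each; adjusted p = 0.220 and 0.328 by limma).

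**Figure D4:**
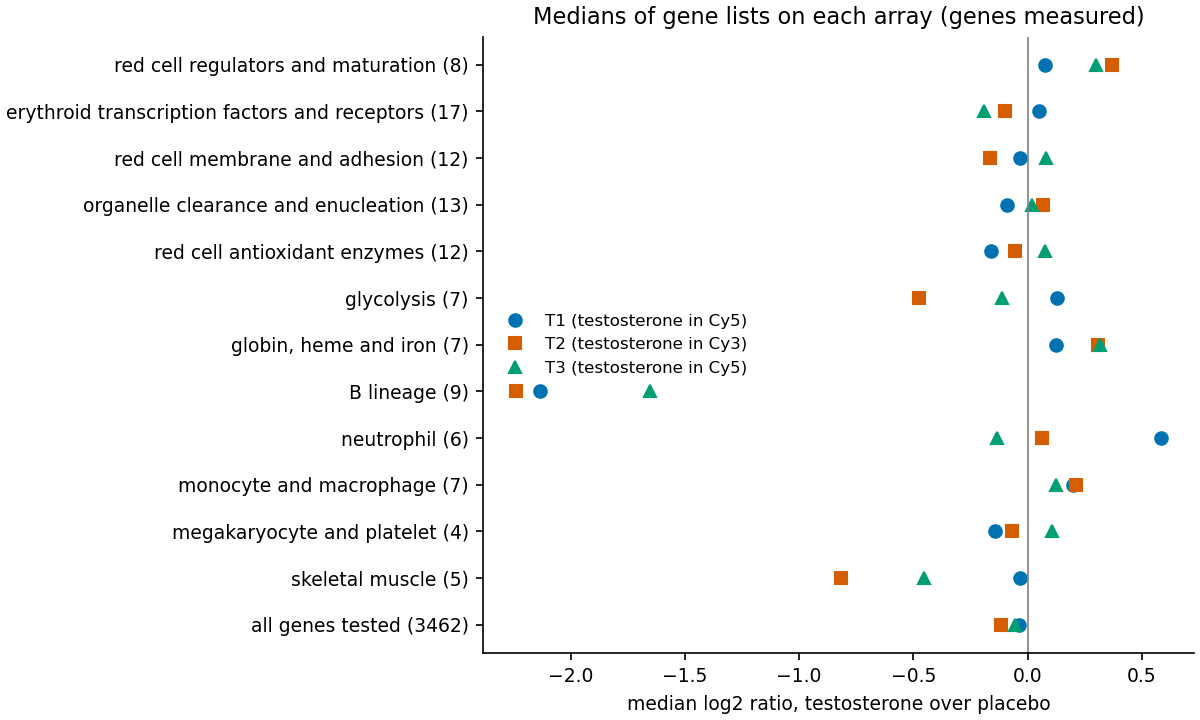
Median log2 ratio of testosterone over placebo on each array for the 8 member genes (top row), for other gene lists and for all genes tested (bottom row), with the number of genes measured in brackets. The members, the globin, heme and iron genes and the monocyte and macrophage markers have all 3 medians above 0, and the B lineage list has all 3 below -1.6.

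Markers of other cell types were read in the same pairs, and of these lists the B-lineage list alone had genes that passed. The part of these cells in the members' ratios was not tested. Of 9 B-lineage markers measured, 8 fell and 1 did not pass, against 3.24% of all genes that passed as lower. Of these 8, Bank1 did not pass without T2 or T3 or after median centring, nor Il7r without T2. The 9 markers had medians of -2.14 in pair T1, -2.24 in pair T2 and -1.65 in pair T3 and single values from -3.37 to 0.05. Skeletal muscle markers had medians of -0.03 in pair T1, -0.82 in pair T2 and -0.45 in pair T3, so that T1 was nearest to 0, as for the members. All 5 muscle means were below 0 and 0 of 5 passed, with values from -1.57 to 0.07. Neutrophil markers numbered 6, with medians of 0.59 in pair T1, 0.07 in pair T2 and -0.14 in pair T3, values from -0.73 to 0.77, and 0 of 6 passed. Monocyte and macrophage markers (7 genes, 0 passed) had medians of 0.20, 0.21 and 0.13 on T1, T2 and T3, with values from -0.42 to 0.57. Megakaryocyte and platelet markers, of a lineage that also uses Tal1, had a median of -0.02 over 4 genes and values from -0.66 to 0.74, and 0 of 4 passed. The integrin Itga2b of that list had a mean of -0.44 ± 0.19 (SD, n = 3; adjusted p = 0.0583 by limma). Each sample was labelled from a fixed amount of total RNA, so the ratios give no change in absolute amount.

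The mean profile of the 8 members was 0.05 in pair T1, 0.31 in pair T2 and 0.28 in pair T3. The 5 other genes nearest to it, by the root mean square difference over the 3 arrays, were Npdc1, 4933409K07Rik, Hspa4l, S100a1 and Anks1b, with differences of 0.02 to 0.04. None of them is in the red cell lists. Bnip3l, Trim10 and Icam4 themselves differed from this profile by 0.06, with 15, 18 and 18 other genes nearer to it than they are. Tal1 and Bpgm differed by 0.07, with 21 and 20 nearer. Prdx2 differed by 0.12, with 123 nearer, Hemgn by 0.15, with 209 nearer, and Dmtn by 0.19, with 407 nearer. The profile is the mean of the members themselves, so their nearness to it is in part fixed. Likeness over 3 arrays is a description, and whether it marks a group was not tested.

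As for the arrays, the files give ratios for 9007 of 11552 spots in pair T1, 6771 in pair T2 and 6982 in pair T3, and the 6039 spots measured in all pairs were tested. The SD over the tested spots was 0.32 in pair T1, 0.49 in pair T2 and 0.32 in pair T3, so a given ratio on T2 stands less far out than on the other arrays. Pearson's r over these spots, which are not independent replicates, was 0.42 between T1 and T2, 0.49 between T1 and T3 and 0.73 between T2 and T3. With 3 pairs, the median over genes of limma's standard error of a gene mean was 0.11, so precision was limited.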

How the data were processed

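The authors' deposited values are log2 ratios as read here, 1 per spot and array; their base, background correction and normalization were not stated in the labels or the file header. The deposited sign of each array was kept, because all arrays correlated positively. Genes were named by Entrez ID through the RefSeq table of GRCm38.p6 (7880 of 8050 spots with 1 gene matched), and 12 control or non-mouse spots were left out. Spots, and genes as means of their spots per array, were tested against 0 across all 6039 spots or 3462 genes by moderated linear models (limma 3.58.1, R 4.3.3), two-sided and adjusted by Benjamini-Hochberg, after the procedure was tested on simulated data. All members are named, with up to 3 genes of smallest p per other list and the 5 nearest in profile; others named for their role were chosen after their values were seen. Members and lists were chosen with earlier results of these data known. Per the design text the replicates are mouse pairs, 1 array each. Alternatives were each array left out, T2 turned, a dye term, centring, scaling, the median over spots, robust eBayes, a threshold of 0.10 and spots measured in 2 or more pairs.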

Additional observations from a re-analysis of the deposited data

How the results depend on the processing

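The count of 0 member genes and 0 member spots past the threshold was the same with the sign of T2 turned, after median centring, after centring with scaling, with spots valued on at least 2 arrays, with robust eBayes and at a threshold of 0.10. A dye term gave 1 of 11 member spots, of Prdx2 (adjusted p = 0.0251), where it called 21.7% of all spots, and 0 member genes. Leaving out each array gave 0 to 2 member spots and 0 to 1 member genes, all of these without T1. The median of the member means, 0.22, ran from 0.17 to 0.31 when an array was left out, was 0.26 after centring and -0.026 with T2 turned. Turning T2 reversed Hemgn (-0.088), Trim10 (-0.023), Bnip3l (-0.031), Prdx2 (-0.029) and Bpgm (-0.032); by construction it exchanges treatment and dye effect. Over all genes, 170 passed as deposited (58 higher, 112 lower), 0 with T2 turned, where limma gave adjusted p = 0.999 for each member, 385 with a dye term (180 higher, 205 lower), 61 after median centring (8 higher, 53 lower), 297 after centring and scaling (165 higher, 132 lower), and 623 without T1, 35 without T2 and 33 without T3; the cause was not tested. Each value already is a ratio within a pair and there is 1 group, so the test of the mean against 0 is itself the paired comparison. The values are ratios only, so signal over background could not be judged from them.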
